A study of Nasonia vitripennis with 2 samples.

Results

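Mosaic chains are stretches of the Nasonia vitripennis genome in which methylated CpG sites follow each other with non-methylated CpGs interspersed among them. They were selected on the methylation counts themselves. A covered CpG was a CpG site with at least 10 reads, and a methylated CpG (mCpG) was a covered CpG with more than 10% methylated reads. A chain joined mCpGs on 1 scaffold that lay at most 500 bp apart and ended at 3 covered non-mCpGs in a row. Chains with at least 10 covered CpGs, of which 50% to 80% were mCpGs, were kept at any methylation level. This left 463 mosaic chains of 15644 chains in all, and of 5058 chains with at least 10 covered CpGs, or 9.15% of the latter. The other 4595 of these had more than 80% mCpGs and are called dense chains here. No chain of that size had fewer than 50% mCpGs. Since the counts chose the chains, the shares and levels below are a description, and no test was made of them.

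The counts came from whole-genome bisulfite sequencing (WGBS-seq) of the whole bodies of 50 pooled adult females (strain AsymCX, age 24 h). The 2 lanes of this pool were summed. Bisulfite turns a non-methylated C into a base read as T, while a methylated C is still read as C, so the share of C reads at a CpG is its methylation percentage. The table held 14024488 CpG sites on 6183 scaffolds with 226856322 counts in total. Of these sites 7818889 were covered, with a median of 19 reads, and 116929 of the covered CpGs (1.5%) were mCpGs. There was a single pool and a single condition, so no value has an error between samples. Intervals in the text are 95% Wilson intervals, and for a count of 0 the limit is that of 3 counts. Both cover counting error only, since PCR reads are not independent molecules and 1 read can be counted at several CpGs.

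In insects that methylate their DNA, methylation sits mainly on CpGs inside transcribed genes, above all in exons, and is sparse elsewhere. In animals generally, a maintenance methyltransferase of the Dnmt1 family copies the mark to the new strand after replication, and Dnmt3 enzymes can place it on CpGs without one. A pool of whole bodies averages over the cells of many tissues. A CpG with an intermediate percentage can thus be methylated in some cells or alleles and not in others. Counts per site cannot show which reads carried methylation at both of a pair of neighboring CpGs.

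The mosaic chains held 8026 covered CpGs, of which 5890 were mCpGs and 2136 were interspersed non-mCpGs. They carried 5.04% of all mCpGs (interval 4.91% to 5.16%) on 0.103% of all covered CpGs, over 492233 bp. Another 933 CpG sites inside them (10.4%) had fewer than 10 reads and were not called. The median chain was 928 bp long (quartiles 623.5 and 1420 bp) and had 15 covered CpGs, of which 11 were mCpGs and 4 were not. The shortest spanned 145 bp and the longest 3351 bp, and the number of covered CpGs ran from 10 to 48. Dense chains were longer, with a median of 1203 bp and 19 covered CpGs. A typical mosaic chain was thus shorter than a dense one, and held fewer CpGs. The rule bears on both values, since frequent non-mCpGs end a chain sooner. Among chains with 10 to 14 covered CpGs the median lengths were 646 bp in mosaic and 830 bp in dense chains. They were 1154 and 1186 bp with 15 to 24 covered CpGs, and 1813 and 1939 bp with 25 or more.

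Taken over all reads, 127620 of 308588 counts in mosaic chains were methylated, 41.4% (interval 41.2% to 41.5%), against 62.6% in dense chains. A lower level was fixed in part by the rule, since a larger share of the sites was non-methylated. The mCpGs alone also had lower percentages, though the same counts had sorted the chains. Their median was 64.3% in mosaic chains (quartiles 33.3% and 84.2%, 5890 mCpGs) and 77.1% in dense chains (quartiles 54.3% and 90%, 89533 mCpGs). Of the mCpGs in mosaic chains 18.7% were at 25% or lower (interval 17.7% to 19.7%), compared to 8.4% in dense chains, and 38% were above 75%, compared to 52.5%. By chain, the methylation percentage ran from 8.35% to 76.6%, with a median of 41.9%, and 255 of 463 mosaic chains exceeded the 40% that an mCpG cluster needs. An mCpG cluster is a chain of 4 or more covered CpGs whose mCpG share is above 80% and whose methylation is above 40%, and 4469 of the 4595 dense chains met this.

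**Figure D1:**
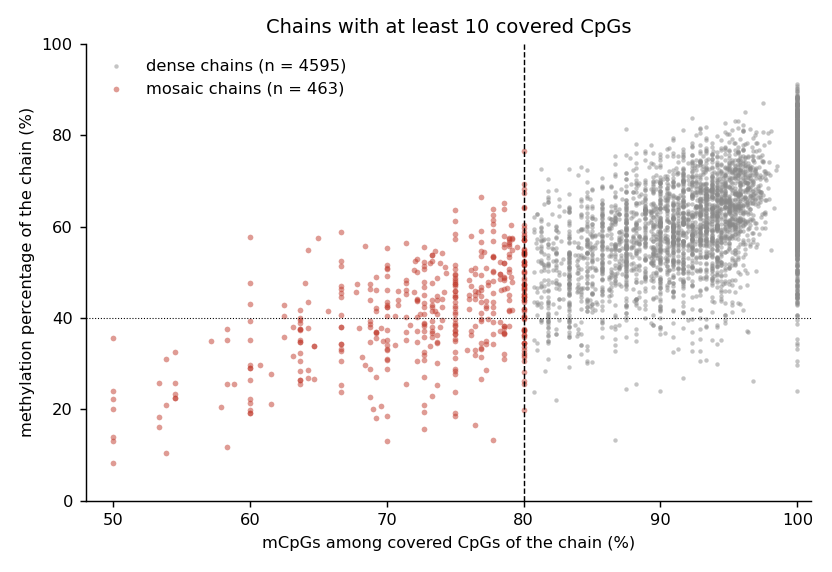
Methylation percentage of each chain (y axis, %) against the share of its covered CpGs that are mCpGs (x axis, %), 1 point per chain, for 463 mosaic chains (red) and 4595 dense chains (grey). The dashed line is the 80% limit of the rule and the dotted line is 40% methylation; 255 mosaic chains lie above the dotted line, and both kinds form 1 continuous cloud at 80%.

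The share of mCpGs and the level moved together within the mosaic chains. The 39 chains with 50% to 60% mCpGs had a median level of 24%, the 102 chains with more than 60% and up to 70% had 37.5%, and the 322 chains with more than 70% had 44.9%. The mCpGs themselves had median percentages of 34.5%, 61.5% and 66.7% in these classes. Their interspersed non-mCpGs had pooled percentages of 2.6% (interval 2.26% to 2.99%), 2.76% (2.55% to 2.99%) and 3.13% (2.99% to 3.28%). The range of the last is bounded by the 10% limit of the rule. Chains with the smallest share of mCpGs thus had mCpGs of the lowest percentages. They were also the shortest and the richest in CpG, with median lengths of 403, 756 and 1077 bp and median densities of 3.27, 2 and 1.72 CpG sites per 100 bp. The rule bears on these lengths as well, since frequent non-mCpGs end a chain sooner. Median depths were close, 33.8, 36.7 and 36.6 reads per covered CpG.

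The limits of the rule cut through a continuum. Exactly 50% mCpGs were found in 7 chains, and the one of these with the most covered CpGs lay on SCAFFOLD4, from position 2572478 to 2573171, where 7 of 14 covered CpGs were mCpGs and methylation was 24%. At the other limit, 76 chains had exactly 80%. The largest of them lay on SCAFFOLD390, from 1336 to 2533, where 28 of 35 covered CpGs were mCpGs and methylation was 53.8%. Just beyond the limit stood a dense chain on SCAFFOLD1, from 3194904 to 3196286, in which 21 of 26 covered CpGs (80.8%) were mCpGs at 23.9% methylation. Positions are those of the reference scaffolds used in the study, whose release is not given in the sources used here. Genes, exons and introns at these positions, and the sequence, were not analysed here.

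**Figure D2:**
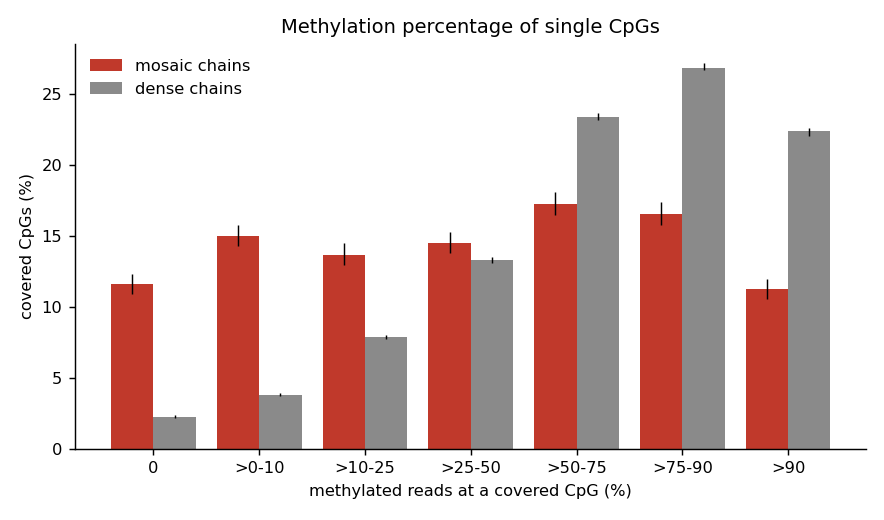
Share of covered CpGs (y axis, %) in each class of methylated reads (x axis, %), for the 8026 covered CpGs of mosaic chains (red) and the 95328 of dense chains (grey), with 95% Wilson intervals. Mosaic chains are spread over all classes, from 11.6% of CpGs without a methylated read to 11.3% above 90%, and dense chains pile up above 50%.

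The sites of a mosaic chain spread over the whole range. CpGs without a methylated read made up 11.6% of the covered CpGs, those above 0% and up to 10% another 15%, and those above 90% another 11.3%. In dense chains the same classes held 2.25%, 3.83% and 22.4%. The standard deviation of the site percentages within a chain had a median of 34.5 percentage points in mosaic chains and 27.5 in dense chains. The rule set these differences in part, since mosaic chains must hold a larger share of sites at 10% or lower.

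The interspersed non-mCpGs were nearly but not wholly free of methylated reads. Of their 87292 counts, 2617 were methylated, 3% (interval 2.89% to 3.11%). Dense chains gave 3.45% (3.38% to 3.53%), whereas the 7691538 covered non-mCpGs outside every chain gave 0.151%. The value in mosaic chains was thus 19.8 times that outside chains, under the same limit of 10% per site. The value outside chains was below the share of unconverted Cs that the study reports for its non-methylated lambda control. The ratio is therefore taken against a background within the range of failed conversion. No methylated read was seen at 930 of the 2136 sites (43.5%), 1 read at 570 (26.7%), and at least 2 at 636 (29.8%). Outside every chain 96.6% of the sites had none. Only 44 sites stood at exactly 10%, on the limit itself, while 601 sites (28.1%) lay above 5%.

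The difference from sites outside the chains was seen in each of 3 depth classes. The median was 34 reads at the non-mCpGs and 31 at the mCpGs of mosaic chains, with 19 at non-mCpGs outside every chain. Among sites with 10 to 19 reads, 62.5% of the non-mCpGs in mosaic chains and 98.4% outside had no methylated read. With 20 to 39 reads these shares were 46.2% and 96.2%, and with 40 or more reads 31.3% and 91.2%. At 40 or more reads the pooled percentage was 3.05% in mosaic chains (interval 2.92% to 3.2%), 3.52% in dense chains (3.43% to 3.61%) and 0.179% outside.

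A single site at this depth is known only roughly. The interval of 522 non-mCpGs (24.4%) lay wholly below 10%, and that of 5066 mCpGs (86%) lay wholly above it. In dense chains these shares were 22.9% and 94%. At least 1 such clear non-mCpG, together with at least 1 mCpG whose interval lay wholly above 50%, occurred in 280 of the 463 mosaic chains. At least 3 of each occurred in 49 mosaic chains. Of the 4595 dense chains, 988 had at least 1 of each and 50 had at least 3. The rule bears on this comparison, since mosaic chains must hold a larger share of non-mCpGs. If every non-mCpG with an interval that reached 10% were counted as an mCpG, 24 mosaic chains would still have 80% mCpGs or fewer. Sites of both kinds with clear intervals were thus present in most mosaic chains, and also in a smaller share of dense chains. The share of mCpGs in a given chain was known less well.

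The largest mosaic chains show how the non-mCpGs were placed. The chain with the most covered CpGs lay on SCAFFOLD504, from 15897 to 18671, where 36 of 48 covered CpGs were mCpGs and methylation was 48.2% (interval 45.8% to 50.7%). Its first 22 covered CpGs were all mCpGs, and its 12 non-mCpGs all lay at 1672 bp or more from its start. At 1672 and 1674 bp 0 of 22 and 0 of 24 reads were methylated, which allows up to 13.6% and 12.5%. The next CpG, at 1679 bp, had 8 of 24, the one at 1681 bp 0 of 25, and the one at 1683 bp 3 of 25. Calls here thus alternated between CpGs 2 to 5 bp apart, close enough to be read on the same reads. The counts were low, and 3 of 25 does not exceed the limit of 3 counts for 0 of 25.

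The chain on SCAFFOLD7, from 1270240 to 1271810, alternated along most of its length. It had 23 mCpGs among 35 covered CpGs and 41.5% methylation, and its 12 non-mCpGs had 10 methylated reads of 416. It opened with 4 mCpGs, at 9 of 10, 10 of 10, 16 of 17 and 20 of 28 methylated reads. At 241 bp 0 of 35 reads were methylated, which allows up to 8.57%. The following 3 CpGs had 26 of 29, 29 of 41 and 63 of 76. At 1132 bp the count was 0 of 39, which allows up to 7.69%, and 9 bp further on it was 41 of 42 (97.6%, interval 87.7% to 99.6%).

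The non-mCpGs could also be confined to a part of a chain, with mCpGs between them, as on SCAFFOLD504. On SCAFFOLD123, from 3901 to 4833, the first 10 covered CpGs were mCpGs and all 9 non-mCpGs lay between 520 and 820 bp from the start. The mCpGs between them were low and ran from 10.4% (8 of 77 reads) to 26.5% (13 of 49 reads). This chain had 20.2% methylation (interval 18% to 22.5%), the lowest among the 132 mosaic chains with at least 20 covered CpGs, and lay 38 bp from an mCpG cluster. The next lowest were on SCAFFOLD40, from 1477582 to 1478908, with 20.8%, and on SCAFFOLD58, from 555594 to 556334, with 25.7%.

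**Figure D3:**
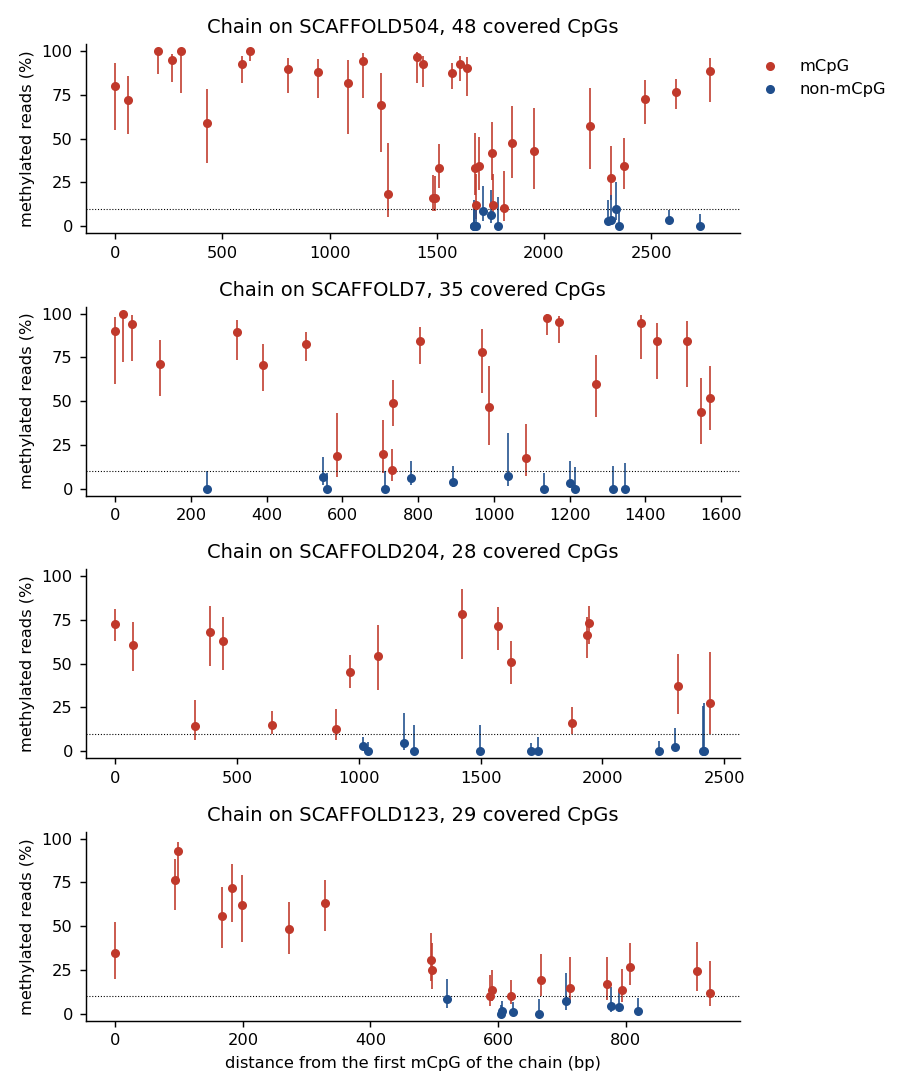
Methylated reads (y axis, %) at each covered CpG of 4 mosaic chains against the distance from the first mCpG of the chain (x axis, bp), for mCpGs (red) and non-mCpGs (blue), with 95% Wilson intervals as vertical lines and the 10% limit dotted. The chain on SCAFFOLD504 starts with 22 mCpGs, those on SCAFFOLD7 and SCAFFOLD204 alternate, and the chain on SCAFFOLD123 turns from high to low along its length.

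Among chains with a mean depth of up to 60 reads, 3 had the most reads at sites without any methylated read. On SCAFFOLD204, from 55655 to 58096, 8 of the 11 non-mCpGs had no methylated read in 314 reads together, among them 0 of 75, 0 of 69 and 0 of 62. These allow up to 4%, 4.35% and 4.84%. The mCpG just before the site with 0 of 75 had 30 of 59 methylated reads. On SCAFFOLD193, from 161494 to 163736, 4 of 13 non-mCpGs had none in 260 reads, and a site with 0 of 111 lay between CpGs 14 bp before it with 78 of 106 and 10 bp after it with 61 of 132. On SCAFFOLD3, from 4820462 to 4822564, 7 of 8 non-mCpGs had none in 241 reads, and all 8 lay in the first 587 bp. The other end of that chain was high, with 44 of 46, 33 of 37, 28 of 28 and 29 of 32 reads at its last 4 CpGs.

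Among the chains with at least 20 covered CpGs, the highest level was that of the chain on SCAFFOLD19, from 1837188 to 1838420, at 60.5% (interval 57.2% to 63.6%), where 16 of 20 covered CpGs were mCpGs. A site with 0 of 61 reads lay between sites with 34 of 48 and 38 of 43. The chains on SCAFFOLD820, from 1822 to 5172, and SCAFFOLD11, from 1865571 to 1867045, followed with 60.3% and 59.6%. The remaining chains with the most covered CpGs were on SCAFFOLD127, from 704798 to 706961 (34 of 46, 52%), SCAFFOLD16, from 375436 to 377830 (34 of 43, 48.9%), and SCAFFOLD397, from 106427 to 107922 (31 of 43, 52.5%).

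Steps between neighbors could be sharp. Among pairs of 1 mCpG and 1 non-mCpG within 75 bp, 894 had 30 to 170 reads at both sites, and their median difference was 40.8 percentage points (quartiles 17.2 and 69.8). The difference exceeded 50 points in 376 pairs and 75 points in 174 pairs, which lay in 127 chains. It was smaller for close pairs, with medians of 22.5 points at 2 to 10 bp (159 pairs), 26.1 points at 11 to 25 bp (221 pairs) and 53.3 points at 26 to 75 bp (514 pairs). Even so, 14 pairs at most 10 bp apart differed by more than 75 points.

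The sharpest step lay on SCAFFOLD38, where position 396670 had 0 of 55 methylated reads, which allows up to 5.45%, and position 396725 had 43 of 44 (97.7%, interval 88.2% to 99.6%). The next was the pair 9 bp apart on SCAFFOLD7 described above. On SCAFFOLD1, positions 3269737 and 3269781 had 0 of 39 and 31 of 32. On SCAFFOLD6, positions 2120336 and 2120380 had 31 of 32 and 0 of 56. On SCAFFOLD2, positions 6793955 and 6794025 had 2 of 47 and 32 of 32. The intervals of the members of each pair did not overlap. The pairs were picked for this difference, so it is a description.

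Runs of non-mCpGs in a chain can hold at most 2 sites by the rule. Of the 1500 runs in mosaic chains 636 (42.4%) had 2, against 21.5% of the 4769 runs in dense chains. The rule bears on this difference too, since mosaic chains must hold a larger share of non-mCpGs. A mosaic chain had a median of 3 runs of non-mCpGs, and at most 11. Of the 7563 pairs of neighboring covered CpGs in mosaic chains 51.9% were both mCpGs, 39.7% were mixed and 8.41% were both non-mCpGs. The last kind lay closest together, at a median of 14 bp (quartiles 6 and 40 bp), against 41 bp for pairs of mCpGs and 48 bp for mixed pairs. At most 10 bp separated 40.4% of the pairs of non-mCpGs (interval 36.7% to 44.3%) and 12.5% of the pairs of mCpGs (11.5% to 13.5%). In dense chains these shares were 45.7% and 13.2%.

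The mCpGs next to a non-mCpG were the lower ones. Their median percentage was 50% (2582 mCpGs), compared to 72.3% for the 3308 mCpGs without a non-mCpG beside them. In dense chains the medians were 58.8% and 78.6%. For correlations, pairs of sites of the same mosaic chain were pooled over all chains. The values of r thus also hold differences in level between chains. Site percentages correlated at 2 to 25 bp (Pearson r = 0.598, 3311 pairs), and less so at 26 to 79 bp (r = 0.141, 6797 pairs). At 80 to 100 bp r was -0.01 (2436 pairs). At 160 to 180 bp r was 0.217 (2082 pairs), and at 240 to 260 bp it was 0.0564 (1868 pairs). At 320 to 360 bp r was 0.103 (3218 pairs). Dense chains gave 0.631, 0.203, 0.0498, 0.265, 0.0204 and 0.133 at the same distances. Pairs at distances between these ranges were left out. Sites up to 75 bp apart can share reads, and the pairs share sites and chains, so no p-value is given.

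Within a chain, non-mCpGs were found everywhere. Leaving out the first and last site, which are mCpGs by the rule, non-mCpGs made up 34.4%, 26%, 25.9%, 27% and 35.3% of the covered CpGs in 5 successive parts of about equal numbers of sites in the mosaic chains. The intervals were 32.1% to 36.9% in the outermost part on the left and 23.7% to 28.3% in the middle. In dense chains the shares were 10.2%, 4.56%, 3.56%, 4.67% and 9.74%. With the end sites included, the shares in mosaic chains were 25.5%, 26.5%, 26.5%, 27.6% and 27%, with no excess in the outer parts, and in dense chains 8.43%, 4.87%, 3.58%, 4.87% and 8.11%. The outer parts thus had more than the middle under both counts in dense chains, and in mosaic chains only without the end sites.

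**Figure D4:**
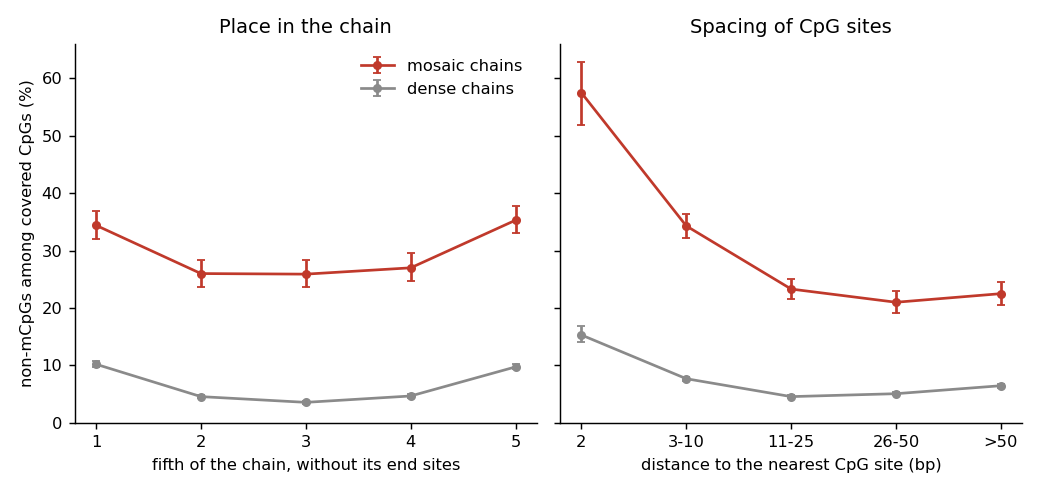
Share of covered CpGs that are non-mCpGs (y axis, %) by place in the chain, cut into 5 parts without its end sites (left), and by distance to the nearest CpG site in bp (right), in mosaic (red) and dense chains (grey), with 95% Wilson intervals. In mosaic chains the share is 34.4% and 35.3% in the outer parts and 25.9% in the middle one, and it is 57.5% for CpGs with another CpG 2 bp away.

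Non-mCpGs sat where CpGs were crowded. The nearest CpG site, covered or not, was a median of 15 bp from a non-mCpG and 24 bp from an mCpG of a mosaic chain, compared to 19 and 23 bp in dense chains. Of the 315 CpGs in mosaic chains with another CpG 2 bp away, 181 (57.5%, interval 51.9% to 62.8%) were non-mCpGs. With the nearest CpG 3 to 10 bp away the share was 34.3% (interval 32.2% to 36.4%). It was 23.3% (21.6% to 25.1%) with a distance of 11 to 25 bp, and 21% and 22.5% in the classes of 26 to 50 bp and beyond. In dense chains the shares in the 5 classes were 15.3%, 7.68%, 4.56%, 5.07% and 6.46%, so that the share rose again where CpGs lay farthest apart. The mCpGs of mosaic chains also had lower median percentages where CpGs were crowded, 49% at 2 bp and 55.3% at 3 to 10 bp, against 66.7% at 11 to 25 bp and 65.8% beyond 50 bp. CpGs close together are read on the same reads, so these sites are not independent of each other.

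The chains as wholes were only slightly richer in CpG than dense chains. Mosaic chains had 1.82 CpG sites per 100 bp and dense chains 1.7, a ratio of 1.07, and both were far below the 4.76 per 100 bp of all scaffolds. The ratio was 1.19 among chains with 10 to 14 covered CpGs (211 mosaic and 1199 dense), 1.03 with 15 to 24 (178 and 2225) and 1.06 with 25 or more (74 and 1171). The difference in overall density lay mostly in the smallest class. The shares by distance to the nearest CpG were pooled over all chains and not compared within a chain. Whether the crowding of the non-mCpGs was local, or came with chains richer in CpG throughout, was thus not tested. The level was lower in each class, with median methylation of 38.2%, 41.9% and 46.5% in mosaic chains against 64.3%, 64% and 63.7% in dense chains.

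Mosaic chains lay close to mCpG clusters. The distance to the nearest cluster had a median of 956 bp (quartiles 382 and 2511 bp, 456 chains). For dense chains the distance to the nearest other cluster was 1740 bp (quartiles 910.5 and 4486 bp, 4463 chains). A cluster lay within 1000 bp of 240 mosaic chains (51.8%, interval 47.3% to 56.4%) and within 5000 bp of 389 (84%), against 27.5% (26.2% to 28.8%) and 74.6% of dense chains. With gaps of up to 200 bp in the chains, the shares within 1000 bp were 71.6% of mosaic and 51.1% of dense chains, and with chains ended by 4 non-mCpGs they were 38.5% and 23.8%. Under the main rule a cluster lay within 1000 bp on 1 side for 208 mosaic chains and on both sides for 32. The rule bears on short distances, because 3 covered non-mCpGs in a row end a chain even where methylation resumes shortly after. That happened within 50 bp for 8 mosaic chains, among them those on SCAFFOLD820, at 47 bp, and SCAFFOLD390, at 43 bp. Of the 926 ends of mosaic chains 94.8% were set by 3 non-mCpGs and 4.86% by a gap of more than 500 bp, shares close to the 94.7% and 4.82% of dense chains.

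**Figure D5:**
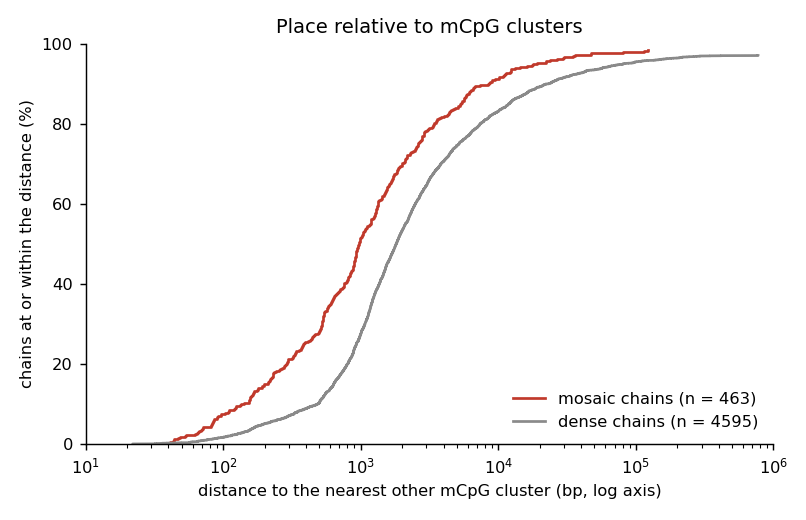
Share of chains (y axis, %) that have another mCpG cluster at or within a given distance (x axis, bp, log scale), for 463 mosaic chains (red) and 4595 dense chains (grey); chains on scaffolds without another cluster never count. At 1000 bp the curves stand at 51.8% and 27.5%.

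The 463 chains were spread over 114 scaffolds, and 51 of these held a single one. SCAFFOLD1 had 38 mosaic chains, 11.3% of its 335 chains with at least 10 covered CpGs (interval 8.38% to 15.2%). SCAFFOLD2, SCAFFOLD7 and SCAFFOLD16 had 24 each, or 10.9%, 12.4% and 12.1%. On the 31 scaffolds with at least 50 such chains the share ran from 1.85% on SCAFFOLD20 to 12.5% on SCAFFOLD31. Scaffolds shorter than 100 kbp gave 8.37% (5.36% to 12.8%), those from 100 kbp to 1 Mbp 9.26% (7.56% to 11.3%) and longer ones 9.17% (8.31% to 10.1%), which were not distinguishable at these counts. Scaffold length was taken as the position of its last CpG. Another mosaic chain lay within 5000 bp of 50 mosaic chains (10.8%).

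Depth set 1 chain apart. The mosaic chain on SCAFFOLD1861, from 4753 to 5758, had a mean of 312.3 reads per covered CpG, against a median of 36.4 over mosaic chains, and 13.3% methylation. Without it the methylation percentage of mosaic chains was 41.9% and that of the interspersed non-mCpGs 2.98%. A site above 170 reads occurred in 7 mosaic chains. A further 43 cloned regions, mCpG clusters and candidate non-CpG positions with known scaffold coordinates were looked up. The paper lists these clusters in genes of an older gene set that are absent from its newer one. Of the 43, 0 fell in a mosaic chain. This was largely set beforehand, since the paper's mCpG clusters need a larger share of mCpGs than a mosaic chain may have. The paper places most of the candidate positions inside such clusters. For most of the cloned regions, it reports covered CpGs at the gene start as all methylated or all non-methylated. The count thus cannot show whether mosaic chains avoid such places.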

How the data were processed

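DNA of 1 pool of 50 females was read in 2 lanes, which are runs of the same pool. Base calls were made with CASAVA 1.7 per the submitters' processing notes. The authors trimmed reads to 75 bp, aligned them with BWA (version not given in the sources used here) to converted reference scaffolds with at most 4 mismatches. Only uniquely placed reads without indels were kept. The deposited values are raw counts of C and T reads per CpG, summed over lanes and strands without normalization. Whether duplicate reads were removed is not given in the sources used here.

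Chains were called as described above, and the caller was tested on simulated data. Named chains were the 5 with the most covered CpGs, the 3 highest and 3 lowest with at least 20, the 3 with the most reads at sites without a methylated read (mean depth up to 60), the 5 sharpest pairs, those at the limits of the rule, and any chain at a position the study gives. The chains on SCAFFOLD1861 and those within 50 bp of a cluster were picked after their values were seen. The members and lists were chosen with earlier results of these data known. Scripts ran under matplotlib 3.10.9, SciPy 1.17.1, pandas 2.3.3, NumPy 2.4.6 and Python 3.11.15. No gene annotation was used, since the one given belongs to a different assembly.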

Additional observations from a re-analysis of the deposited data

How the results depend on the processing

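Of the 463 chains, 251 were overlapped by a mosaic chain at a coverage minimum of 20 reads (153 with the same ends), 252 with mCpGs above 20% (157), 324 with the binomial test against the lambda control (243), 244 with gaps of up to 200 bp (146) and 446 with gaps of up to 1000 bp (423). These were 93 (59) when 2 non-mCpGs ended a chain and 446 (357) when 4 did. The number of mosaic chains was 102 and 902 with chains ended by 2 and by 4 non-mCpGs, and 132 with at least 20 covered CpGs. Under the other alternatives it lay between 377 and 556. The methylation percentage of mosaic chains was 41.7% at a minimum of 20 reads, 48.4% with mCpGs above 20%, 38.7% with the binomial test, 40.8% and 41.7% with gaps of up to 200 and 1000 bp, 41% and 42.5% with chains ended by 2 and 4 non-mCpGs, 45% with at least 20 covered CpGs, and 42.2% without CpGs above 170 reads. It was 42.3% without chains of mean depth above 60 and 44.3% as the mean over sites, both alternatives chosen after seeing the data. That of the interspersed non-mCpGs was 6.82% with mCpGs above 20%, 1.83% with the binomial test, and 3.54% and 2.61% with chains ended by 2 and 4 non-mCpGs. The ratio of CpG density to dense chains was 1.04 and 1.06 at minimums of 5 and 20 reads, 1 with mCpGs above 20%, 1.1 with the binomial test, 1.16 and 1.06 with gaps of up to 200 and 1000 bp, 1.05 and 1.08 with chains ended by 2 and 4 non-mCpGs, and 1.02 with at least 20 covered CpGs. The cause of these shifts was not tested.

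The lanes could not be left out in turn, since the counts sum them. No paired analysis was possible because the lanes are runs of 1 pool and no test was made. With a median of 31 reads per mCpG, depth limits the call of a single CpG and so the share of mCpGs in a chain.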
